A study of Larimichthys crocea with 4 samples.

Results

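Transcripts of the circadian clock were measured in livers of large yellow croakers (Larimichthys crocea), a marine fish farmed in China. Members were the assembled transcripts (unigenes) whose best Swiss-Prot match was a Period protein, a cryptochrome other than the DASH type, CLOCK, an ARNTL protein, an NR1D nuclear receptor or NFIL3. The match found 44 of 57216 unigenes, which carried 11 protein names. Of the 44, 2 matched ARNTL proteins, 6 CLOCK, 15 Period proteins, 12 cryptochromes, 5 NR1D receptors and 4 NFIL3. The rule reads the annotation text only.

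The 4 groups were fish kept without food for 21 d (fasting), fish under cold stress for 12 h, fish under thermal stress for 12 h, and untreated control fish (normal feeding). Livers of 6 fish went into the fasting library and livers of 6 fish into the control library. The number of fish behind the stress libraries and the water temperatures of the stress treatments are not given in the sources used here. Each condition is 1 library, so nothing here has a replicate check, and the exact two-sided binomial test used throughout covers counting error and compares libraries, not conditions. The 3 comparisons share the control library. The hour at which fish were sampled is not stated either, and because clock transcripts vary over the day, the hour and the treatment cannot be told apart in any comparison.

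The vertebrate clock is a feedback loop of transcription. CLOCK pairs with ARNTL1 (also called BMAL1) and switches on genes that carry an E-box, among them the Period, cryptochrome and NR1D genes. Period and cryptochrome proteins then block the CLOCK and ARNTL1 pair, the NR1D receptors (REV-ERB) repress ARNTL1, and NFIL3 (also called E4BP4) represses genes that carry a D-box. In mammals the liver clock also follows feeding and temperature, and in fish many cells hold a clock of their own.

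The libraries held 19.5 M fragments under fasting, 17.0 M under cold stress, 17.9 M under thermal stress and 17.5 M in the control, so a count of 0 allows 3 fragments, or between 0.154 and 0.176 fragments in a library scaled to 1 M (counts per-million, CPM). Members had a fragment in 44 of 44 cases under fasting, 44 under cold stress, 39 under thermal stress and 42 in the control. They were 212 to 4748 bp long (median 472.5 bp) and had 12 to 4053 fragments over the 4 libraries (median 68), 20 of them under 50. Short unigenes can be pieces of 1 transcript, so values were also summed over the unigenes of 1 protein name. With the 4 libraries pooled, 39 of the 44 unigenes had no read placed at several unigenes, and in 0 did such reads outnumber those placed at 1. Within single libraries they did for CL2952.Contig1 of PER1 under fasting (83.3%) and for CL2775.Contig2 of CLOCK under cold stress (63.2%). Liver identity was checked with 9 hepatocyte names such as apolipoprotein A-I and fibrinogen, which took 10.6%, 9.20% and 9.40% of fragments under fasting, cold stress and thermal stress, against 11.6% in the control. The 15 names of exocrine pancreas (trypsin, elastase and the like), a tissue that lies within the liver of many bony fish, took 9.58%, 5.54% and 4.06%, against 3.94% in the control. None of the hepatocyte or pancreas names was at 0 in any library. In a whole organ, fewer cells of a type and less RNA per cell cannot be told apart.

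A name or unigene was called where the exact p was under 0.05 and the ratio to the control was at least 2-fold. After fasting, the sums of PER1, PER2, NR1D1 and NR1D2 rose, by 2.67-fold for NR1D2 to 6.96-fold for NR1D1. Under cold stress the sums of NFIL3, CRY1, NR1D1, ARNTL1 and PER1 rose, by 15.1-fold for NFIL3 and 3.33 on the log2 scale for CRY1. Under thermal stress the sum of NFIL3 rose 3.17-fold, and those of CLOCK and PER1 fell. With a biological coefficient of variation of 0.4 assumed, 0 of these 3 calls under thermal stress held, and those of ARNTL1 and PER1 under cold stress and of NR1D2 after fasting were lost. PER3, CRY2 and ARNTL2 were called in none of the comparisons.

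Set against all names tested, 4 of 11 clock names rose after fasting, where 10.6% of all names did, and 0 fell, where 20.0% did. Under cold stress 5 of 11 rose against 18.6% of all names, and 0 fell against 11.1%. Under thermal stress 1 of 11 rose against 7.81% of all names, and 2 fell against 12.3%, which is close to the background. The median log2 ratio to the control over the 11 names was 0.70 after fasting, where all names had a median of −0.17. It was 0.96 with cold stress, against 0.19 for all names, and −0.28 with thermal stress, against −0.15.

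**Figure D1:**
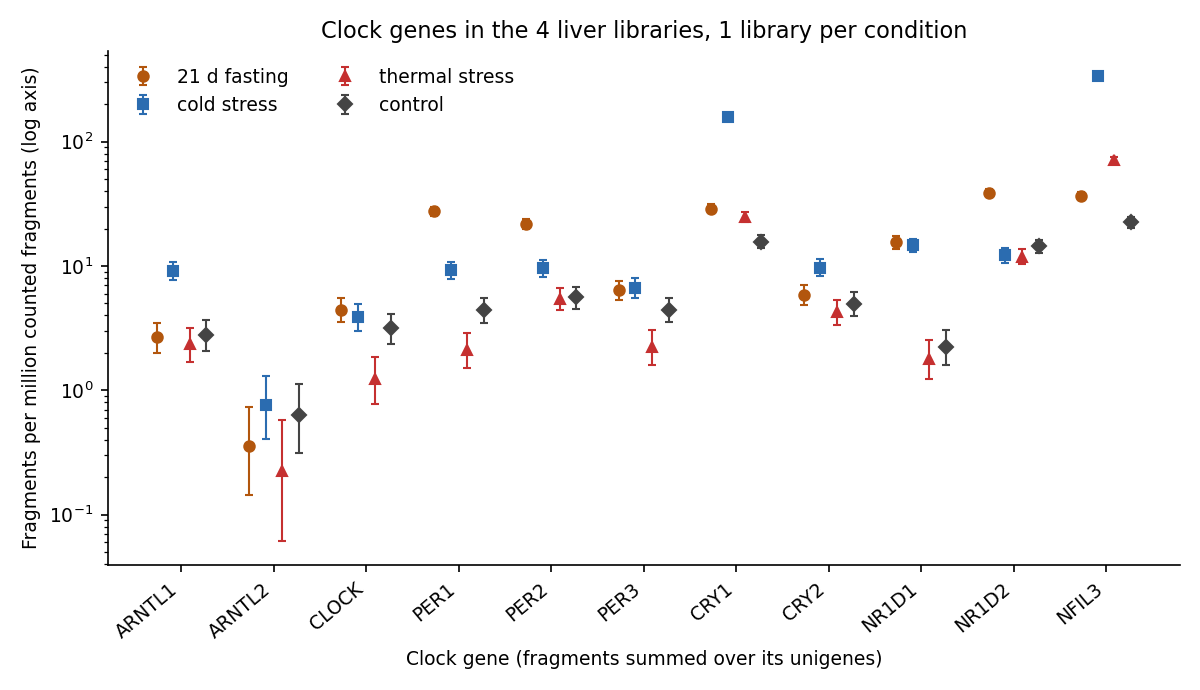
Level of each clock gene in the 4 libraries, as CPM (fragments scaled to a library of 1 M) summed over its unigenes, on a log axis. Points are single libraries and bars are exact 95% Poisson intervals of the count, so they cover counting error only; sums are not divided by length and serve to compare libraries within a gene. NFIL3 had 341 and CRY1 158 CPM under cold stress, and the PER1, PER2 and NR1D2 points of the fasting library stand above their other 3.

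ARNTL1, the partner of CLOCK, was 1 unigene of 2253 bp (Unigene443) with 52 fragments under fasting, 156 under cold stress, 42 under thermal stress and 49 in the control. The cold stress library was high, and the other 3 did not differ beyond their counting intervals. The level was 9.17 CPM under cold stress, against 2.80 in the control, a log2 ratio of 1.71 (exact 95% interval 1.24 to 2.20). The log2 ratio was −0.07 after fasting (−0.66 to 0.52) and −0.26 under thermal stress (−0.89 to 0.37), neither called. The sign after fasting turned to 0.048 with TMM scaling.

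ARNTL2, a paralog of ARNTL1, was a single unigene of 252 bp (Unigene37106). It had 7 fragments under fasting, 13 under cold stress, 4 under thermal stress and 11 in the control. It is too shallow for a ratio to be read.

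CLOCK, which binds the E-box together with ARNTL1, had 6 unigenes with 87 fragments under fasting, 66 under cold stress, 22 under thermal stress and 55 in the control. The thermal stress library was low, with 1.23 CPM against 3.14 in the control, and CLOCK fell there by 1.36 on the log2 scale (exact 95% interval −2.14 to −0.62). Neither fasting and cold stress nor cold stress and control were apart beyond counting error, and the log2 ratio after fasting was 0.50, not called. Its most abundant unigene, Unigene28993, had 44, 25 and 11 fragments under fasting, cold stress and thermal stress, against 33 in the control. That unigene alone was at −0.36 in log2 under cold stress, where the sum over all 6 was at 0.30, and neither was called. Unigene35581, a piece of 212 bp, had 9 fragments under cold stress and 0 in the control, at least 3.08-fold higher, and 3 and 0 under fasting and thermal stress. Unigene34540 had 0 fragments under thermal stress, against 8 in the control, at least 2.73-fold lower.

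Among the repressors, PER1 had the widest spread between libraries within the Period family. Its 3 unigenes held 537 fragments under fasting, 158 under cold stress, 38 under thermal stress and 77 in the control. All 4 libraries were apart from their neighbours, with fasting highest and thermal stress lowest, 13.0-fold between them. PER1 rose to 27.5 CPM after fasting, against 4.40 in the control, a log2 ratio of 2.64 (exact 95% interval 2.30 to 3.01). Under cold stress PER1 was at 9.28 CPM, a log2 ratio of 1.08 (0.67 to 1.49), and under thermal stress at 2.12, a log2 ratio of −1.05 (−1.65 to −0.47). Both stress calls lie next to the 2-fold limit, and both were lost with TMM scaling (0.87 and −0.91). The unigene CL2952.Contig2 (3609 bp) carried 96.2% of the fragments of PER1. Alone it had log2 ratios of 2.72, 1.01 and −0.96 under fasting, cold stress and thermal stress.

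PER2 was split into 10 unigenes, which together held 427 fragments under fasting, 164 under cold stress, 98 under thermal stress and 98 in the control. The fasting library was highest, cold stress next, and thermal stress and control did not differ beyond their intervals. PER2 rose 3.90-fold after fasting, to 21.9 CPM against 5.60 in the control, a log2 ratio of 1.96 (exact 95% interval 1.64 to 2.30). Its log2 ratio was 0.78 (0.41 to 1.16) under cold stress and −0.03 (−0.45 to 0.38) under thermal stress, under the 2-fold limit in both.

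The name PER2 covers unlike transcripts. Unigene13853 (1290 bp), the most abundant, had a fish protein named period 1 as its best match in the NCBI protein database, as CL2952.Contig2 did. It had 212, 40 and 17 fragments under fasting, cold stress and thermal stress, against 29 in the control. Its log2 ratio after fasting was 2.71, where that of CL2952.Contig2 was 2.72. Unigene19408 (1660 bp), matched to a fish period 3, had 93, 81 and 44 fragments, against 32 in the control, with log2 ratios of 1.38 after fasting and 1.38 under cold stress, both called. Among the short pieces, Unigene42214 had 15, 1 and 9 fragments under fasting, cold stress and thermal stress, against 1 in the control. Its log2 ratio was 3.75 after fasting (1.05 to 9.14) and 3.14 under thermal stress (0.28 to 8.59), which rest on that 1 control fragment. Unigene40742 was called lower under thermal stress with 0 fragments, against 5 in the control, a ratio past 2-fold only because of the 0, since against 3 fragments it is at least 1.71-fold lower and the exact 95% interval reaches a log2 ratio of 0.09.

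PER3 had 125 fragments under fasting, 114 under cold stress, 40 under thermal stress and 78 in the control over 2 unigenes. Fasting and cold stress did not differ beyond their intervals, and thermal stress was lowest. Its log2 ratio of −0.998 under thermal stress (exact 95% interval −1.59 to −0.43) lay just inside the 2-fold limit and was not called. Ratios of 0.52 after fasting and 0.59 under cold stress were not called either. The unigenes differed, since Unigene10767 had 26, 52 and 4 fragments under fasting, cold stress and thermal stress, against 22 in the control, and was called higher under cold stress (1.28) and lower under thermal stress (−2.49). The more abundant Unigene16539 had 99, 62 and 36, against 56, and was called in none. Both had a fish protein named after period 2 as their best match in the NCBI protein database. The name PER3 thus follows the Swiss-Prot match, and the unigene matched to a fish period 3 is counted under PER2.

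Over all 15 Period unigenes, 6 rose and 0 fell after fasting, where 12.8% of all unigenes rose and 18.2% fell. Under cold stress 6 rose and 0 fell, where 20.8% and 13.8% did. Under thermal stress 1 rose and 2 fell, where 9.60% and 16.1% did, which is near the background.

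CRY1, a partner of the Period proteins in repression, had 8 unigenes with 565 fragments under fasting, 2685 under cold stress, 446 under thermal stress and 275 in the control. Cold stress stood far above the rest, and the control was lowest, below thermal stress beyond the counting interval. CRY1 rose to 158 CPM under cold stress, against 15.7 in the control, a log2 ratio of 3.33 (exact 95% interval 3.15 to 3.51). Its log2 ratio was 0.88 (0.67 to 1.09) after fasting and 0.66 (0.44 to 0.89) under thermal stress, both above 0 beyond counting error and under the 2-fold limit. The fasting ratio came to 1.001 with TMM scaling, which passes the limit.

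The unigene CL102.Contig3 (3265 bp) carried 70.9% of the fragments of CRY1, with 297, 2050 and 304 under fasting, cold stress and thermal stress, against 165 in the control. Cold stress gave a log2 ratio of 3.67 for it. Unigene29576 had 93, 340 and 34 fragments, against 39 in the control, and CL102.Contig1 had 103, 166 and 19, against 31. These 3 rose under cold stress, and the last 2 named also rose after fasting (1.09 and 1.57), while CL102.Contig3 was at 0.69 there. Under thermal stress they were at 0.85, −0.23 and −0.74 in log2 and none of these 3 was called. Of the short CRY1 unigenes, Unigene2308 (25 fragments, against 7 in the control), Unigene42064 (16, against 4) and CL102.Contig4 (8, against 1) were called higher there, so the transcripts pooled under CRY1 differed in that library.

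CRY2, the other cryptochrome repressor, had 115 fragments under fasting, 165 under cold stress, 76 under thermal stress and 87 in the control over 4 unigenes. Cold stress was highest, and fasting and thermal stress were each not apart from the control. The log2 ratio under cold stress was 0.96 (exact 95% interval 0.58 to 1.35), under the 2-fold limit, and those after fasting and under thermal stress were 0.24 and −0.23. The most abundant CRY2 unigene, Unigene28865 (1147 bp), had 70, 98 and 33 fragments under fasting, cold stress and thermal stress, against 54 in the control. That unigene was called in none of the comparisons. The split into CRY1 and CRY2 follows the Swiss-Prot match. Unigene9425, counted under CRY2, had a fish protein named cryptochrome-1-like as its best match in the NCBI protein database. For CL102.Contig2, counted under CRY1, that match was a fish cryptochrome 2. The RefSeq annotation of this species lists cry1a, cry1b and cry5, to which the unigenes were not matched. Over the 12 cryptochrome unigenes, 4 rose after fasting (12.8% of all unigenes), 8 under cold stress (20.8%) and 3 under thermal stress (9.60%), and 0 fell in any of them.

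NR1D1 and NR1D2 are the REV-ERB receptors, which bind heme and repress ARNTL1 in mammals. NR1D1 had 303 fragments under fasting, 249 under cold stress, 32 under thermal stress and 39 in the control over 3 unigenes. Fasting and cold stress were high and did not differ beyond their intervals (log2 difference of fasting over cold stress 0.08, −0.16 to 0.33), and thermal stress and control were low and also not apart. The log2 ratio was 2.80 after fasting (exact 95% interval 2.31 to 3.32) and 2.71 under cold stress (2.22 to 3.24), which is 6.96-fold and 6.56-fold. Under thermal stress it was −0.32 (−1.04 to 0.39). The longer unigenes moved alike, since Unigene378 had 138, 134 and 22 fragments under fasting, cold stress and thermal stress, against 27 in the control, and CL1933.Contig1 had 153, 114 and 9, against 11. The short Unigene43357 had 12 fragments under fasting and 1 in each of the other libraries.

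NR1D2 had 750 fragments under fasting, 208 under cold stress, 213 under thermal stress and 252 in the control over 2 unigenes. The fasting library alone was high, and cold stress was apart neither from the control nor from thermal stress. NR1D2 rose to 38.4 CPM after fasting, against 14.4 in the control, a log2 ratio of 1.41 (exact 95% interval 1.21 to 1.63). Under cold stress it was −0.24 (−0.51 to 0.03) and under thermal stress −0.28 (−0.55 to −0.01). Thus under cold stress the NR1D1 sum rose and that of NR1D2 was not called, with intervals that did not overlap. The more abundant NR1D2 unigene, CL4297.Contig2 (2710 bp), had 567, 157 and 140 fragments under fasting, cold stress and thermal stress, against 167 in the control. It was called after fasting (1.60), where Unigene22825 was at 0.95 and not called. Under cold stress they were at −0.05 and −0.70, neither called. All 5 unigenes were named as NR1D receptors in the NCBI protein database too, with those under NR1D1 named after NR1D2, so the split into the 2 names follows the Swiss-Prot match. The RefSeq annotation of this species (assembly L_crocea_2.0) lists nr1d2a, nr1d2b and nr1d4a, to which the unigenes were not matched.

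NFIL3, the D-box repressor, had 717 fragments under fasting, 5801 under cold stress, 1281 under thermal stress and 394 in the control over 4 unigenes. All libraries were apart from their neighbours, with cold stress highest and the control lowest. NFIL3 rose to 341 CPM under cold stress, against 22.5 in the control, a log2 ratio of 3.92 (exact 95% interval 3.77 to 4.07). It rose to 71.5 CPM under thermal stress, a log2 ratio of 1.67 (1.50 to 1.83). After fasting it was at 36.7 CPM, a log2 ratio of 0.70 (0.53 to 0.89), under the 2-fold limit.

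The RefSeq annotation lists 4 symbols under this name (nfil3, nfil3-2, nfil3-5 and nfil3-6), to which the 4 unigenes were not matched, and the unigenes differed among themselves. CL4347.Contig2 (4748 bp) had 247, 2617 and 229 fragments under fasting, cold stress and thermal stress, against 66 in the control. It was the 1 member called higher in all 3 comparisons, with log2 ratios of 1.75, 5.35 and 1.76, and its rise under cold stress was 40.8-fold. CL2807.Contig1 (1986 bp), the most abundant of the 44 members, had 347, 2652 and 838 fragments, against 216 in the control. It rose under cold stress (3.66) and thermal stress (1.92) and was at 0.53 after fasting. CL4347.Contig2 and CL2807.Contig1 held most of the fragments summed under NFIL3 in both stress libraries. In the NCBI protein database both matched hypothetical proteins of Oreochromis niloticus. Their Swiss-Prot E-values were 7e-39 and 4e-25, against 3e-152 for Unigene13068. Unigene13068 (2314 bp), the 1 of the 4 whose best match in the NCBI protein database is also named NFIL3, had 118, 526 and 197 fragments, against 98 in the control. It rose under cold stress (2.46), and its values of 0.97 under thermal stress and 0.11 after fasting were not called. CL4347.Contig1, a piece of 216 bp, went against its name after fasting, with 5 fragments against 14 in the control, a log2 ratio of −1.64 (−3.47 to −0.09).

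**Figure D2:**
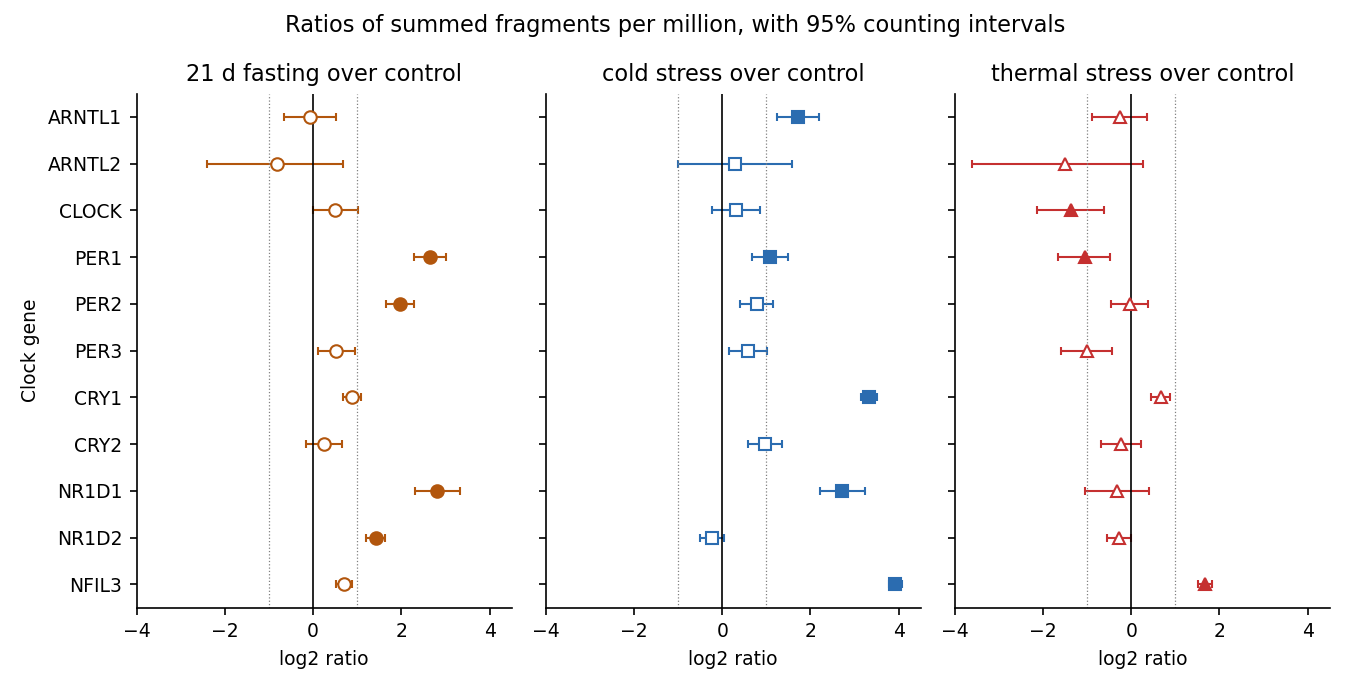
Log2 ratio of summed CPM to the control library for each clock gene, with exact 95% counting intervals, in 3 panels for fasting, cold stress and thermal stress. Filled markers are called (exact p under 0.05 and at least 2-fold, dotted lines), and open markers are not. The called genes lie right of 0 after fasting (4) and under cold stress (5), and under thermal stress 1 lies right and 2 lie left.

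Levels of different genes can be set side by side only per length, as FPKM of the most abundant unigene of each. In the control library these were 6.22 FPKM for NFIL3, 3.52 for NR1D2, 2.89 for CRY1, 1.24 for ARNTL1 and 1.14 for PER1. Under fasting NR1D2 was at 10.7 FPKM, NFIL3 at 8.95, PER2 at 8.41, PER1 at 7.49, CRY1 at 4.66 and ARNTL1 at 1.18. Under cold stress NFIL3 reached 78.5 and CRY1 36.9 FPKM, while NR1D1 was at 5.44 and ARNTL1 at 4.07 FPKM. Under thermal stress NFIL3 was at 23.5, CRY1 at 5.20 and PER1 at 0.588 FPKM. These unigenes were chosen by fragments, which leaves out Unigene22825 of NR1D2. It was at 11.1 FPKM under fasting and at 5.76 in the control, close to the 6.22 of NFIL3. By FPKM, the most abundant transcript of the set was one of NFIL3 in the cold stress, thermal stress and control libraries, and one of NR1D2 under fasting.

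The order of the libraries was read for each of the 11 names. The highest level was under cold stress in 6 names (ARNTL1, ARNTL2, PER3, CRY1, CRY2 and NFIL3) and under fasting in 5 (CLOCK, PER1, PER2, NR1D1 and NR1D2). The lowest was under thermal stress in 9 and in the control in 2, which were CRY1 and NFIL3. The thermal stress library was apart from the next only in 3 of the 9, CLOCK, PER1 and PER3. With TMM or median-of-ratios scaling it was lowest in 7, PER2 being lowest in the control and NR1D2 under cold stress, and PER3 was highest under fasting. For ARNTL2, CLOCK, PER3 and NR1D1 the 2 highest libraries did not differ beyond counting error.

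Counted by unigene, 16 of 44 measured members rose after fasting and 1 fell, where 12.8% of all unigenes rose and 18.2% fell. Under cold stress 21 of 44 rose and 0 fell, where 20.8% rose and 13.8% fell. Under thermal stress 6 of 43 rose and 4 fell, where 9.60% rose and 16.1% fell. Unigenes of 1 gene share their source and are not independent.

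The members fell into 12 patterns of calls over the 3 comparisons. Measured in all 3, 9 rose under cold stress alone, 7 rose in the fasting and cold stress libraries, 6 after fasting alone, and 10 were called in none. A single member rose in all 3. Only Unigene10767 of PER3 was called in opposite directions in 2 comparisons. No share over all unigenes is given for these patterns, and the 3 comparisons share the control library. The pattern counts thus describe the members and are not set against a background.

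**Figure D3:**
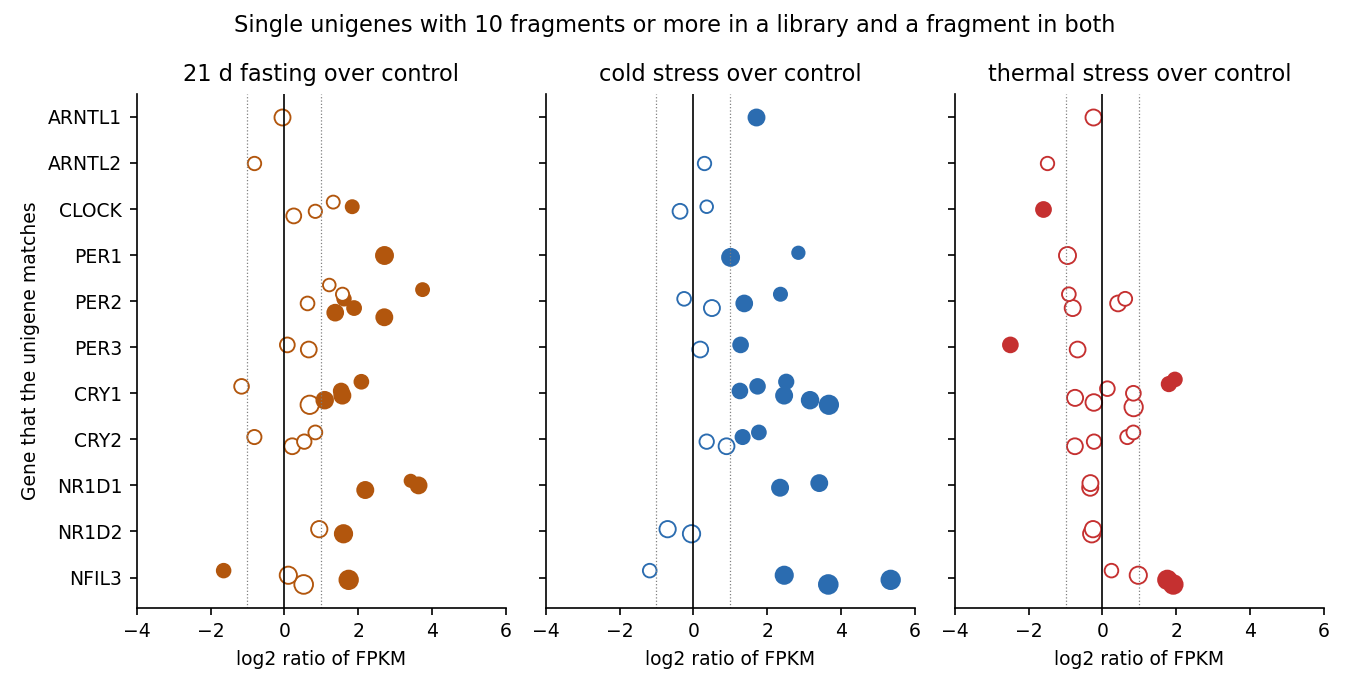
Log2 ratio of FPKM to the control library for single member unigenes with at least 10 fragments in either library and a fragment in both, by the gene they match, in 3 panels for fasting, cold stress and thermal stress. Filled points are called, larger points have more fragments, and dotted lines mark 2-fold. The NFIL3 unigene CL4347.Contig2 lies farthest right, at 5.35 under cold stress, and the unigenes of PER2, CRY1 and NFIL3 spread over several log2 units within a panel.

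A ratio within a library needs no scaling between libraries. The fragments of the Period and NR1D names were divided by those of ARNTL and CLOCK. There were 2142 against 146 fragments under fasting, a ratio of 14.7 (exact 95% interval 12.4 to 17.5). The ratio was 3.80 (3.29 to 4.41) under cold stress, with 893 against 235 fragments, and 6.19 (4.78 to 8.12) under thermal stress, with 421 against 68. In the control it was 4.73 (3.86 to 5.84), with 544 against 115. The fasting interval lay above the other 3, and those of cold stress and thermal stress each overlapped that of the control. This order depends on leaving out the cryptochromes, which are E-box targets and repressors too. With their fragments added, a choice made after the values were seen, the ratio was 19.3 (16.4 to 23.0) under fasting, 15.9 (14.0 to 18.3) under cold stress and 13.9 (10.8 to 18.0) under thermal stress, against 7.88 (6.48 to 9.65) in the control. All 3 then lay above the control, and their intervals overlapped one another. The value depends on unigene lengths, so it serves to compare libraries only.

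A further 6 ratios were chosen after the values were seen and are descriptions. PER1 to CRY1 fragments were 0.950, 0.0588 and 0.0852 under fasting, cold stress and thermal stress, against 0.280 in the control. NR1D2 to NFIL3 fragments were 1.05, 0.0359 and 0.166 under fasting, cold stress and thermal stress, against 0.640 in the control. Both were above the control under fasting and below it in both stress libraries. Of the other 4, only PER1 to ARNTL1 shared that order, and its intervals under cold stress and thermal stress each overlapped that of the control. PER1 to NR1D2 was 0.716, 0.760 and 0.178, against 0.306 in the control, and NR1D1 to ARNTL1 was 5.83, 1.60 and 0.762, against 0.796. CRY1 to ARNTL1 was 10.9, 17.2 and 10.6, against 5.61 in the control, and PER1 to ARNTL1 was 10.3, 1.01 and 0.905, against 1.57.

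As whole families, Period CPM were 3.86-fold the control after fasting, 1.77-fold under cold stress and 0.679-fold under thermal stress. The NR1D family was at 3.24-fold, 1.61-fold and 0.822-fold. Cryptochromes were at 1.68-fold, 8.09-fold and 1.41-fold, and ARNTL with CLOCK at 1.14-fold, 2.10-fold and 0.577-fold. Hence Period and NR1D sums were farthest from the control after fasting, and those of the cryptochromes, of NFIL3 and of ARNTL with CLOCK under cold stress. The NR1D sum pools unlike names, since NR1D1 was at 6.96-fold after fasting and 6.56-fold under cold stress, and NR1D2 at 2.67-fold and 0.848-fold.

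Genes around the core loop were read from a list of clock kinases, output factors and related names, of which 22 were measured. After fasting 4 of the 22 rose and 2 fell, where 10.6% of all names rose and 20.0% fell. Under cold stress 5 rose and 3 fell, where 18.6% and 11.1% did, and under thermal stress 3 rose and 3 fell, where 7.81% and 12.3% did. These shares lie near the background. The median log2 ratios of the list were 0.21, 0.51 and 0.07, against −0.17, 0.19 and −0.15 for all names.

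BHLHE40 (DEC1), a repressor that competes for the E-box, had 903, 299 and 921 fragments under fasting, cold stress and thermal stress, against 216 in the control. It rose after fasting (log2 1.90) and under thermal stress (2.06) and was at 0.51 under cold stress. Its paralog BHLHE41 (DEC2) had 65, 12 and 12, against 38 in the control, and fell under cold stress (−1.62) and thermal stress (−1.70). Under thermal stress both DEC names were thus called, in opposite directions.

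The ROR receptors activate ARNTL1 at the element that NR1D receptors also bind. ROR-beta had 903, 444 and 269 fragments under fasting, cold stress and thermal stress, against 319 in the control, and rose after fasting (1.34). ROR-alpha was sparse, with 49, 0 and 1 fragments, against 10 in the control. It rose after fasting (2.13, exact 95% interval 1.14 to 3.28), was at least 3.24-fold lower under cold stress, and had a log2 ratio of −3.36 (−8.80 to −0.54) under thermal stress. NPAS2, which can replace CLOCK in the pair with ARNTL1, had 48, 23 and 22, against 20 in the control, and rose after fasting (1.10).

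DBP and TEF are the activators at the D-box, the element NFIL3 represses. DBP was the only name of the list that fell in all 3 comparisons, with 7, 3 and 13 fragments under fasting, cold stress and thermal stress, against 35 in the control. The log2 ratios were −2.48, −3.50 (exact 95% interval −5.85 to −1.84) and −1.46, at 58 fragments in all. TEF had 210, 353 and 226, against 159 in the control, and rose under cold stress (1.19). HLF, of the same group, had 1223, 632 and 735, against 675 in the control, and was called in none. Of the D-box activators, DBP and TEF were thus called in opposite directions under cold stress.

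Nocturnin (NOCT), a phosphatase of NADP(H) with a strong daily rhythm in mouse liver, had 135, 804 and 424 fragments under fasting, cold stress and thermal stress, against 87 in the control. It rose under cold stress (log2 3.25) and thermal stress (2.25). FBXW11, a subunit of a ubiquitin ligase that acts on Period proteins, had 212, 487 and 187 fragments under fasting, cold stress and thermal stress, against 176 in the control, and rose under cold stress (1.51). CRY-DASH, a light-sensitive relative of the cryptochromes, had 10, 69 and 25 under fasting, cold stress and thermal stress, against 32 in the control, with a fall after fasting (−1.84) and a rise under cold stress (1.15). RBM4, an RNA-binding protein, had 30, 54 and 71, against 33 in the control, and rose under thermal stress (1.07). The list also holds RBM4.1, with 407, 166 and 398 fragments, against 321 in the control, and RBM4B, with 144, 134 and 159, against 136. Both were deeper than RBM4 and called in none, with log2 ratios of 0.28 and 0.19 under thermal stress. The kinase names CSNK1D, CSNK1E and GSK3B were called in none.

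**Figure D4:**
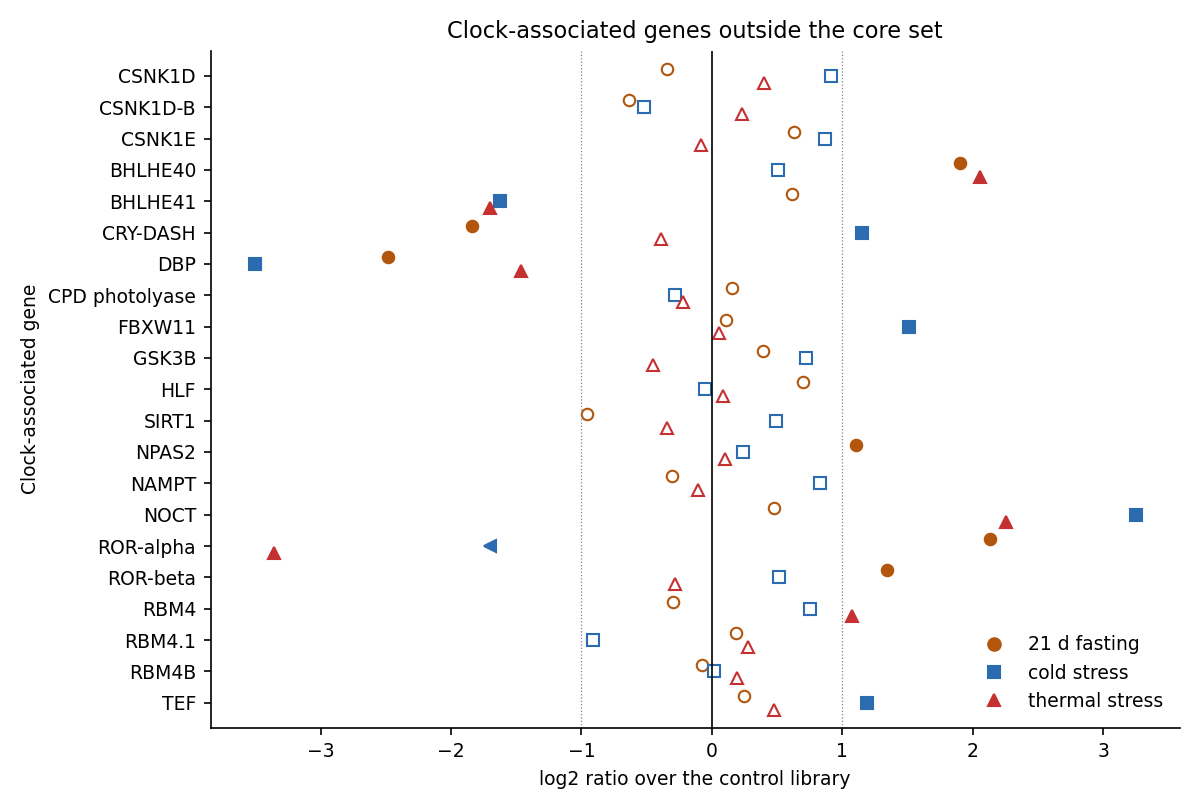
Log2 ratio to the control library for 21 of the 22 clock-associated names outside the core set, with fasting, cold stress and thermal stress as circles, squares and triangles. Filled markers are called, dotted lines mark 2-fold, and the left-pointing marker of ROR-alpha is a bound against 3 fragments since the cold stress library had 0. DBP lies left of −1 in all 3 comparisons, and NOCT lies farthest right, at 3.25 under cold stress.

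The names whose pattern over the 4 libraries was most like that of ARNTL1 were found among 7407 names by the Euclidean distance of centred log2 levels. They were the histone methyltransferase SETD2 (distance 0.042), thiamine transporter 1 (0.078), synaptogyrin-2 (0.10), leptin receptor overlapping transcript-like 1 (0.11) and diacylglycerol kinase epsilon (0.12). SETD2 had 96, 293 and 80 fragments under fasting, cold stress and thermal stress, against 94 in the control. For PER1 they were meprin A subunit beta (0.52), midkine-A (0.54), insulin-like growth factor-binding protein 2-A (0.54), FAM117A (0.62) and mitochondrial acetyl-CoA acetyltransferase (0.65). Meprin A subunit beta had 922, 359 and 94, against 124 in the control. A profile of 4 libraries is short, and likeness over it is a description.

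Other values that moved with the libraries stand beside these results. Names of macrophages or lymphocytes (10) summed to 191, 286 and 141 CPM under fasting, cold stress and thermal stress, against 286 in the control, with 1 name at 0 in the control. Names of red cells (4) were at 223, 231 and 262, against 305 in the control, with none at 0. Names of skeletal muscle (5) were at 19.8, 52.6 and 59.9, against 31.6 in the control, with 2, 1 and 2 names at 0 under fasting, cold stress and thermal stress. The part of these cells in the clock values was not tested. Without the digestive enzymes of the pancreas in the library totals, which were highest under fasting, the same number of clock names (4) was called after fasting.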

How the data were processed

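Liver libraries of 4 conditions, 1 per condition, were sequenced by the authors as paired-end reads on an Illumina instrument and assembled without a genome (Trinity in the study's methods, SOAPdenovo in its results). Unigenes were named by the authors from Swiss-Prot, NCBI and KEGG matches. The aligner and counter are not given in the sources used here. The deposited counts are raw fragments per unigene, not normalized, and sum to 19529986 (fasting), 17020100 (cold stress), 17918349 (thermal stress) and 17494043 (control). The deposited FPKM values are these counts per kb of unigene and per 1 M fragments, and recomputed values differed by at most 5.0e-05. The deposited coverage tables give counts of reads placed at 1 or several unigenes. The authors' own comparison tables hold their fold changes and p-values and were not used. The tables held 0 further columns per library.

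Each library was compared with the control by an exact two-sided binomial test on fragments given the library totals, over every unigene with a fragment in either library and over fragments summed per Swiss-Prot name. Calls needed an unadjusted p under 0.05 and 2-fold, the study's criteria. Intervals are exact (Clopper-Pearson) at 95% and cover counting error only, since each condition is 1 library. PCR reads are not independent molecules, so the intervals can be too narrow even for counting error. A fold against 0 fragments was computed against 3 fragments. Every member name is given, with its most abundant unigene and any unigene called against its name. Of the associated list, called names with at least 50 fragments are given. Likeness used names with at least 200 fragments. Members, lists and tests were chosen with earlier results of these data known. From the list 5 RNA-binding protein names that only begin like RBM4 were left out after values were seen. With them 4 rose and 2 fell after fasting, 7 and 3 under cold stress, and 3 and 4 under thermal stress, of 27. Of the 22 names, 1 is counted and not otherwise reported here. The listed names without a unigene included BTRC, CIPC, TIMELESS, CIART and (6-4) photolyase.

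Alternatives were TMM and median-of-ratios scaling, totals without digestive enzymes, an adjusted p, at least 10 fragments, 0.5 fragments added, a biological coefficient of variation of 0.4 assumed in edgeR's exact test, reads at 1 place only, contig clusters, KEGG numbers, the most abundant unigene alone and an E-value of at most 1e-20. The test was tried on simulated Poisson counts, with known changes set only in unigenes above a minimum level. Those counts held no spread between libraries, so the trial covers counting error only. DESeq2 1.42.0 and edgeR 4.0.16 ran in R 4.3.3, and all else in Python 3.11.15 (numpy 2.4.6, scipy 1.17.1, pandas 2.3.3, matplotlib 3.10.9).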

Additional observations from a re-analysis of the deposited data

How the results depend on the processing

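With 1 library per condition no replicate could be left out, and no value has a spread between fish. No paired analysis was possible because each group has 1 library. A biological coefficient of variation of 0.4 between libraries, not between single fish, was also assumed (exact test of edgeR). That assumption left 7 of the 17 called member unigenes after fasting, 11 of 21 under cold stress and 4 of 10 under thermal stress. Of the clock names it left 3 of 5 under cold stress and 0 of 3 under thermal stress. It ended the calls of NR1D2 after fasting, of ARNTL1 and PER1 under cold stress, and of CLOCK, PER1 and NFIL3 under thermal stress. A minimum of 10 fragments left 6 called unigenes under thermal stress, where fewer unigenes enter. Sums by KEGG number left 1 called sum there, which was higher, and 0 called lower (8 numbers, with 9 unigenes that are no members). The KEGG number of CLOCK, which no other member name shares, was thus not called lower. The Period names share a KEGG number, and the sum over their members was at −0.56 in log2 under thermal stress. The cause of these changes was not tested. Adding cryptochromes to the numerator, chosen after seeing the data, moved the ratio of Period and NR1D to ARNTL and CLOCK fragments to 19.3, 15.9 and 13.9 under fasting, cold stress and thermal stress, against 7.88 in the control. TMM shifted every log2 ratio by 0.12 (fasting), −0.21 (cold stress) and 0.15 (thermal stress), and median-of-ratios by 0.18, −0.18 and 0.15. The sign of ARNTL1 after fasting turned with TMM (0.048), median-of-ratios (0.10) and totals without digestive enzymes (0.014), that of PER2 under thermal stress with TMM (0.11) and median-of-ratios (0.12), and that of CLOCK under cold stress with its most abundant unigene alone (−0.36), and none of these was called. CRY1 passed the limit after fasting with TMM (1.001) and median-of-ratios (1.06). PER1 lost its call under cold stress with TMM (0.87) and median-of-ratios (0.89), and under thermal stress with both (−0.91 and −0.90), reads at 1 place only (−0.94), and an E-value of at most 1e-20 or its most abundant unigene alone (−0.96 in each). Apart from these, the ratios of the 11 names kept their sign and their side of the threshold under the alternatives that gave a ratio per name. Sums by KEGG number gave none. Depth limits ARNTL2, ROR-alpha, DBP and the short unigenes most.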
